A study of Mus musculus with 13 samples.

Results

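Gene expression in the mouse aorta was compared between subjective day and subjective night, the hours that would be light and dark if the earlier light cycle had continued. The animals were c57/Bl6 mice, an inbred laboratory strain. They were entrained for 2 weeks to days of 12 h light and 12 h dark and then moved to constant darkness. After 36 h of it aortae were taken every 4 h across 48 h. Each time point was 1 pool of aortae from 6 mice, named by circadian time (CT), on which 12 h separate expected lights-on at 0 from expected lights-off. The day group was the 6 pools CT26, CT30, CT34, CT50, CT54 and CT58, which sample circadian times 2, 6 and 10. The night group was the 6 pools CT18, CT22, CT38, CT42, CT46 and CT62, which sample circadian times 14, 18 and 22. Each circadian time was thus covered by 2 pools, one in the first cycle (CT18 to CT38) and one in the second (CT42 to CT62). These are all 12 pools of the series and all 13 of its arrays, because CT18 was hybridised to 2 arrays, which were averaged on the log2 scale. Both groups were in darkness, had the same strain and, by the labels, no engineered allele or drug; the sources used here give neither sex nor age.

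In mammalian cells the circadian clock is a loop of transcription in which Clock and Arntl (Bmal1) drive genes through E-boxes, and the period and cryptochrome proteins that result shut this drive off. A second loop sets Arntl through the nuclear receptors of the REV-ERB and ROR families, and D-box factors such as Dbp carry the rhythm to output genes. In vessels the clock is known to bear on tone, clotting and lipid handling, while cues of feeding, body temperature and hormones reach the vessel wall with the same period.

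Of 12422 probe sets other than controls, 7453 were bright enough to be tested, and they stood for 5655 genes. Intensities below 36.7 were set to that floor before log2 was taken, so a value at the floor is a bound. Quality measures of the arrays overlapped between the groups: the 3' to 5' ratio of actin was 1.64 to 2.21 in day arrays and 1.77 to 2.01 in night arrays, while 4.01% to 4.96% and 4.03% to 6.02% of the tested probe sets were at the floor. The CT18 arrays differed by a median of 0.193 (log2), against 0.208 to 0.438 for the other pairs of arrays. Of the defining markers of the tissue, 4 of 5 for aortic smooth muscle and 7 of 7 for endothelium were bright enough, Smtn being the one that was not. Markers of neighbouring tissues were present too, and none of their summed levels separated day from night. The 14 skeletal muscle markers summed to 8201 to 39446 in day pools and 13513 to 31312 in night pools, with CT18, CT34 and CT58 the highest, and Myh2 of this list lay at the floor in every pool. The 8 thymocyte markers summed to 759 to 4563 and 662 to 4267, and the 9 atrial markers to 8870.1 to 11809 and 8826 to 19424. In whole aorta, fewer cells of a type and less RNA per cell cannot be told apart.

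Few transcripts passed the test between subjective day and night, and those that did were led by protein-folding genes at night and by a lipid regulator by day. The comparison was tested probe set by probe set with limma over the 12 pools, with Benjamini-Hochberg adjustment over all 7453 and a threshold of 0.05. Higher levels in subjective day were called for 6 probe sets (0.0805% of those tested) and higher levels in subjective night for 4 (0.0537%). The 6 were Ppara, Zfp703, Bri3, Pim1, Zfp36l2 and Cebpa, and the 4 were Hspa8, Hsph1, Cry1 and Hsp90aa1. Their differences ran from 0.59 to 1.63 in size (log2), and in all 10 the lowest pool of the higher group lay above the highest pool of the other. Without a correction for multiple tests, 355 probe sets (4.76%) were higher by day and 309 (4.15%) by night at p under 0.05. The median difference of all 5655 genes was -0.02, and 45.7% of genes and 44.6% of probe sets lay above 0.

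**Figure D1:**
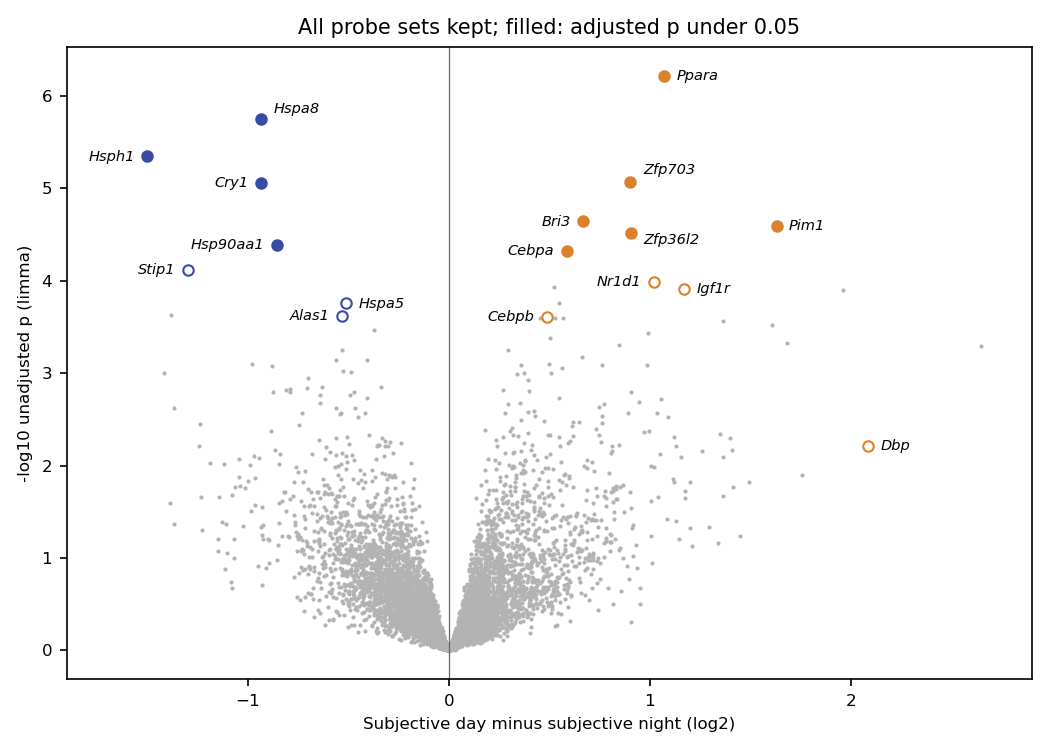
Each grey point is 1 of the 7453 probe sets tested, by its difference between subjective day and subjective night (log2, horizontal) and the -log10 of its unadjusted p from limma (vertical). Filled points are the 6 day-higher (orange) and 4 night-higher (blue) probe sets with an adjusted p under 0.05, and open points are other named genes, Stip1 at 0.0518 being the nearest to the threshold.

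The night-higher genes were 3 cytosolic chaperones and a clock repressor. Hspa8, the constitutive Hsp70 that folds new proteins and uncoats clathrin vesicles, measured 2037 to 3132 with a median of 2619 in the 6 day pools and 4162 to 6019 with a median of 4776 in the 6 night pools. No night pool overlapped the day pools, and night was 1.91-fold higher (day minus night -0.93 ± 0.12, log2 with its SE, adjusted p = 0.00662, limma). Hsph1, the Hsp110 that releases nucleotide from Hsp70, measured 291 to 377 with a median of 340.5 in the 6 day pools and 628 to 1499 with a median of 846 in the 6 night pools. The day pools of Hsph1 lay in a narrow band, whereas CT42 and CT62 of the second cycle (1480.3 and 1499) stood above the other night pools. Its difference was -1.50 ± 0.21 (adjusted p = 0.0112, limma), 2.82-fold in favour of night. Hsp90aa1, the inducible cytosolic Hsp90, measured 1104 to 1758 with a median of 1481 in the 6 day pools and 2049.5 to 3440.4 with a median of 2426 in the 6 night pools (-0.85 ± 0.14, adjusted p = 0.0338, limma). Again the groups did not overlap, and CT62 and CT42 were the highest.

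Cry1, a cryptochrome that represses Clock and Arntl, measured 142 to 235 with a median of 174 in the 6 day pools and 282 to 394 with a median of 341 in the 6 night pools. It was 1.91-fold higher at night (-0.93 ± 0.14, adjusted p = 0.0131, limma), and the highest day pool was CT26 at 235. The Cry1 probe set carries the manufacturer's mark for probes shared with other transcripts, and the 2 other Cry1 probe sets were too dim to be tested, so its value may hold signal from related sequences. All 4 of these genes had their highest mean at circadian time 18, in the middle of subjective night. For Cry1 the means at 18 and 22 were 354 ± 14.9 and 353 ± 57.8 (SD, n = 2 pools each) and do not differ beyond their spread.

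The day-higher genes were led by Ppara. Ppara, the nuclear receptor that turns on fatty acid oxidation, measured 810.5 to 1013 with a median of 960.4 in the 6 day pools and 340.2 to 537 with a median of 485 in the 6 night pools. It had the smallest p of all probe sets: day was 2.1-fold higher (1.07 ± 0.12, adjusted p = 0.00451, limma), with a gap between 537 at CT46 and 810.5 at CT50. Zfp703, a zinc finger repressor of transcription, measured 492 to 727 with a median of 606 in the 6 day pools and 274 to 393 with a median of 322 in the 6 night pools (0.90 ± 0.13, adjusted p = 0.0131, limma). Cebpa, a transcription factor of fat and liver cells, measured 3573 to 4739 with a median of 3887 in the 6 day pools and 2271 to 3399 with a median of 2551 in the 6 night pools (0.59 ± 0.10, adjusted p = 0.0355, limma). Cebpa fell step by step from a mean of 4470.4 ± 380.4 at circadian time 2 to 2316 ± 64.1 at 18 (SD, n = 2 pools each), and its highest night value, 3399 at CT46, came close to the lowest day value of 3573 at CT34.

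Zfp36l2, which speeds the breakdown of AU-rich messenger RNAs, measured 876 to 1515 with a median of 1221 in the 6 day pools and 531 to 828 with a median of 587 in the 6 night pools (0.90 ± 0.15, adjusted p = 0.0287, limma). A second, much dimmer Zfp36l2 probe set gave 0.41 ± 0.39 (adjusted p = 0.800, limma). Bri3, a small membrane protein of lysosomes, measured 919 to 1429 with a median of 1299 in the 6 day pools and 666 to 830.5 with a median of 782 in the 6 night pools (0.67 ± 0.11, adjusted p = 0.0274, limma). Pim1, a serine/threonine kinase induced by cytokines, measured 95.1 to 251 with a median of 149 in the 6 day pools and 36.7 to 76.3 with a median of 45.5 in the 6 night pools by the probe set that passed. That set had 2 night pools at the floor, so its fitted difference of 1.63 ± 0.26 (adjusted p = 0.0274, limma) depends on the floor. The call was lost with the floor at the 10th percentile and with a pseudocount of 50 in its place, each leaving 5 day-higher probe sets. The adjusted p of this set ran from 0.0152 to 0.76 over its 29 alternatives (limma). The brighter Pim1 probe set measured 1045 to 1298 with a median of 1181 in the 6 day pools and 752 to 1042 with a median of 847 in the 6 night pools, also without overlap, but with a smaller difference that did not pass (0.46 ± 0.09, adjusted p = 0.0824, limma). Of the 6 probe sets higher by day, 3 had their highest mean at circadian time 2, 2 at 6 and 1 at 10.

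**Figure D2:**
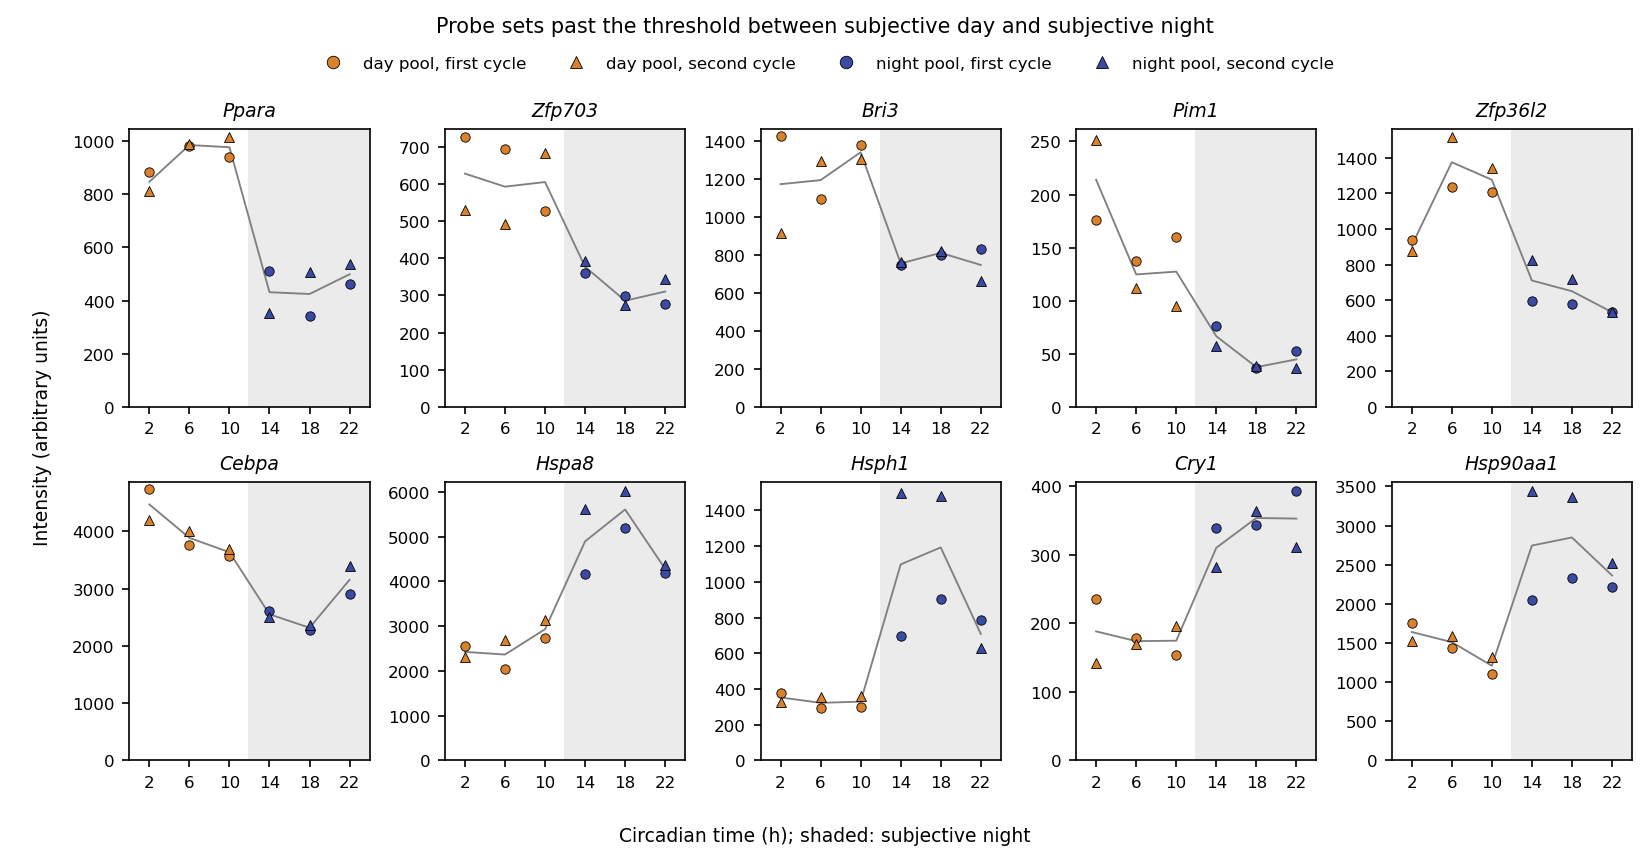
Intensity (arbitrary units, linear axis from 0) of the 10 probe sets past the threshold in each pool, by circadian time in hours; circles are first-cycle and triangles second-cycle pools, orange subjective day and blue subjective night, and the grey line joins the means of 2 pools. In every panel the 6 pools of one phase lie above the 6 of the other, from Ppara (810.5 against 537 at the nearest) to Hsp90aa1.

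Leaving out each pool in turn left Ppara, Hspa8 and Hsph1 past the threshold in 12 of 12 fits, Zfp703 and Cry1 in 11, Bri3 in 6, Zfp36l2 in 5, Pim1 in 4, Hsp90aa1 in 3 and Cebpa in 1. Without CT18 the counts fell to 1 day-higher and 2 night-higher. Without CT34, CT46, CT54, CT58 or CT62 there were 3 day-higher. Without CT38 the counts rose to 10 and 8, of which 5 and 4 were among the 10 probe sets called with all pools. Of the thymocyte and atrial markers, 7 of 8 and 9 of 9 lay below 0 (higher at night), with medians of -0.48 and -0.32. When the mean levels of the skeletal muscle, thymocyte and atrial marker lists entered the model, 0 probe sets passed (limma). The differences then were 1.14 for Ppara, -0.87 for Hspa8, -1.50 for Hsph1, -0.99 for Hsp90aa1, -0.96 for Cry1, 0.91 for Zfp703, 0.70 for Bri3, 1.63 for Pim1 and 1.08 for Zfp36l2. That of Cebpa went from 0.59 to 0.42, while that of Zfp36l2 went from 0.90 to 1.08. Each of the 10 kept its sign in every other setting in which it was tested, 29 for Pim1 and 30 for the others. Where a setting only left out pools, their lack of overlap fixed the sign in advance. The adjusted p of Ppara ran from 0.00271 to 0.408 (limma).

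Among the next genes by p, Stip1, the co-chaperone that hands clients from Hsp70 to Hsp90, measured 67.4 to 160.1 with a median of 119 in the 6 day pools and 201 to 373 with a median of 249 in the 6 night pools, without overlap (-1.29 ± 0.23, adjusted p = 0.0518, limma). Hspa5 (BiP), the Hsp70 of the endoplasmic reticulum, measured 985 to 1213 with a median of 1098 in the 6 day pools and 1248 to 1963 with a median of 1561 in the 6 night pools, also without overlap (-0.51 ± 0.10, adjusted p = 0.077, limma). Alas1, the first enzyme of haem synthesis, measured 1400.2 to 2043 with a median of 1515 in the 6 day pools and 2009 to 2761 with a median of 2355 in the 6 night pools, and only CT58 of the day pools (2043) reached the lowest night level (-0.53 ± 0.11, adjusted p = 0.0824, limma). On the day side, Igf1r, the receptor of insulin-like growth factor 1, measured 105 to 238 with a median of 158 in the 6 day pools and 52.2 to 101 with a median of 71.6 in the 6 night pools, without overlap (1.17 ± 0.22, adjusted p = 0.0626, limma). Cebpb, another C/EBP transcription factor, measured 1211 to 1869 with a median of 1698 in the 6 day pools and 1034 to 1261 with a median of 1143 in the 6 night pools (0.49 ± 0.10, adjusted p = 0.0824, limma), with CT26 below CT62. Irf4, a transcription factor of lymphocytes and fat cells named after its values were seen, measured 140.4 to 675 with a median of 341 in the 6 day pools and 54.8 to 189 with a median of 67.5 in the 6 night pools (1.96 ± 0.37, adjusted p = 0.0626, limma), and its groups overlapped.

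Chaperones as a group lay on the night side. Of 35 measured cytosolic heat shock and co-chaperone genes, 3 were called night-higher and 0 day-higher, against 0.0707% and 0.0884% of all genes. At an unadjusted p under 0.05, 14 were higher at night and 0 by day, where 4.07% and 5.08% of all genes were. In 5, each by its brightest probe set, the groups did not overlap, all with night higher (0.354% of all genes). The median difference of the list was -0.28, against -0.02 for all genes, and 29 of 35 lay below 0. The rhythm of these genes in the same pools was known when the list was chosen, so the counts are no independent evidence of it.

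Hspa4, a further Hsp110, measured 459.7 to 499 with a median of 482 in the 6 day pools and 564 to 702 with a median of 609.6 in the 6 night pools, a small but clean separation (-0.37 ± 0.08, adjusted p = 0.0985, limma). The client-handing co-chaperones St13 (-0.96 ± 0.34) and Fkbp4 (-0.51 ± 0.15), the Hsp40 proteins Dnaja1 (-0.88 ± 0.26) and Dnajb6 (-0.31 ± 0.12), and the Hsp90 partner Chordc1 (-0.79 ± 0.20) were all lower by day with adjusted p from 0.195 to 0.451 (limma). The Chordc1 value given is that of a dimmer probe set, in which the groups did not overlap. In its brightest probe set, which stands for the gene in the list counts, they overlapped. Here and in the lists that follow, members other than the one with the smallest p were picked for naming after their values were seen. Subunits of the TRiC chaperonin, which folds actin and tubulin, showed smaller differences, -0.30 ± 0.09 for Cct5 and -0.18 ± 0.08 for Cct8. Of the mitochondrial chaperones, Hspd1 gave -0.07 ± 0.06 and Hspa9 0.07 ± 0.06, on either side of 0. The stress-induced Hsp70 genes Hspa1a (0.11 ± 0.47) and Hspa1b (-0.47 ± 0.36) had SEs as wide as or close to their differences, and probes may read both of these near-identical copies.

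In the endoplasmic reticulum, where secreted and collagen chains fold, 6 of 22 measured genes were higher at night at an unadjusted p under 0.05 and 0 by day (4.07% and 5.08% of all genes), with a list median of -0.20. None was called, and 1 (Hspa5) had no overlap (0.354% of all genes with night higher). The first cycle alone gave 2 night-higher members. Hsp90b1 (Grp94) measured 1680.1 to 2240.1 with a median of 1797 in the 6 day pools and 2018 to 2805 with a median of 2266 in the 6 night pools (-0.32 ± 0.10, adjusted p = 0.321, limma). Serpinh1, the collagen chaperone Hsp47, gave -0.49 ± 0.15, the disulphide isomerase Pdia3 -0.34 ± 0.11, and P4ha1, a prolyl hydroxylase of collagen, -1.19 ± 0.39. P4hb, the partner subunit of P4ha1, lay on the other side at 0.42 ± 0.23. Cirbp, a cold-inducible RNA-binding protein, measured 329 to 487 with a median of 359 in the 6 day pools and 153 to 333 with a median of 293 in the 6 night pools and went against the heat shock genes, higher by day at 0.49 ± 0.18 (adjusted p = 0.427, limma).

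**Figure D3:**
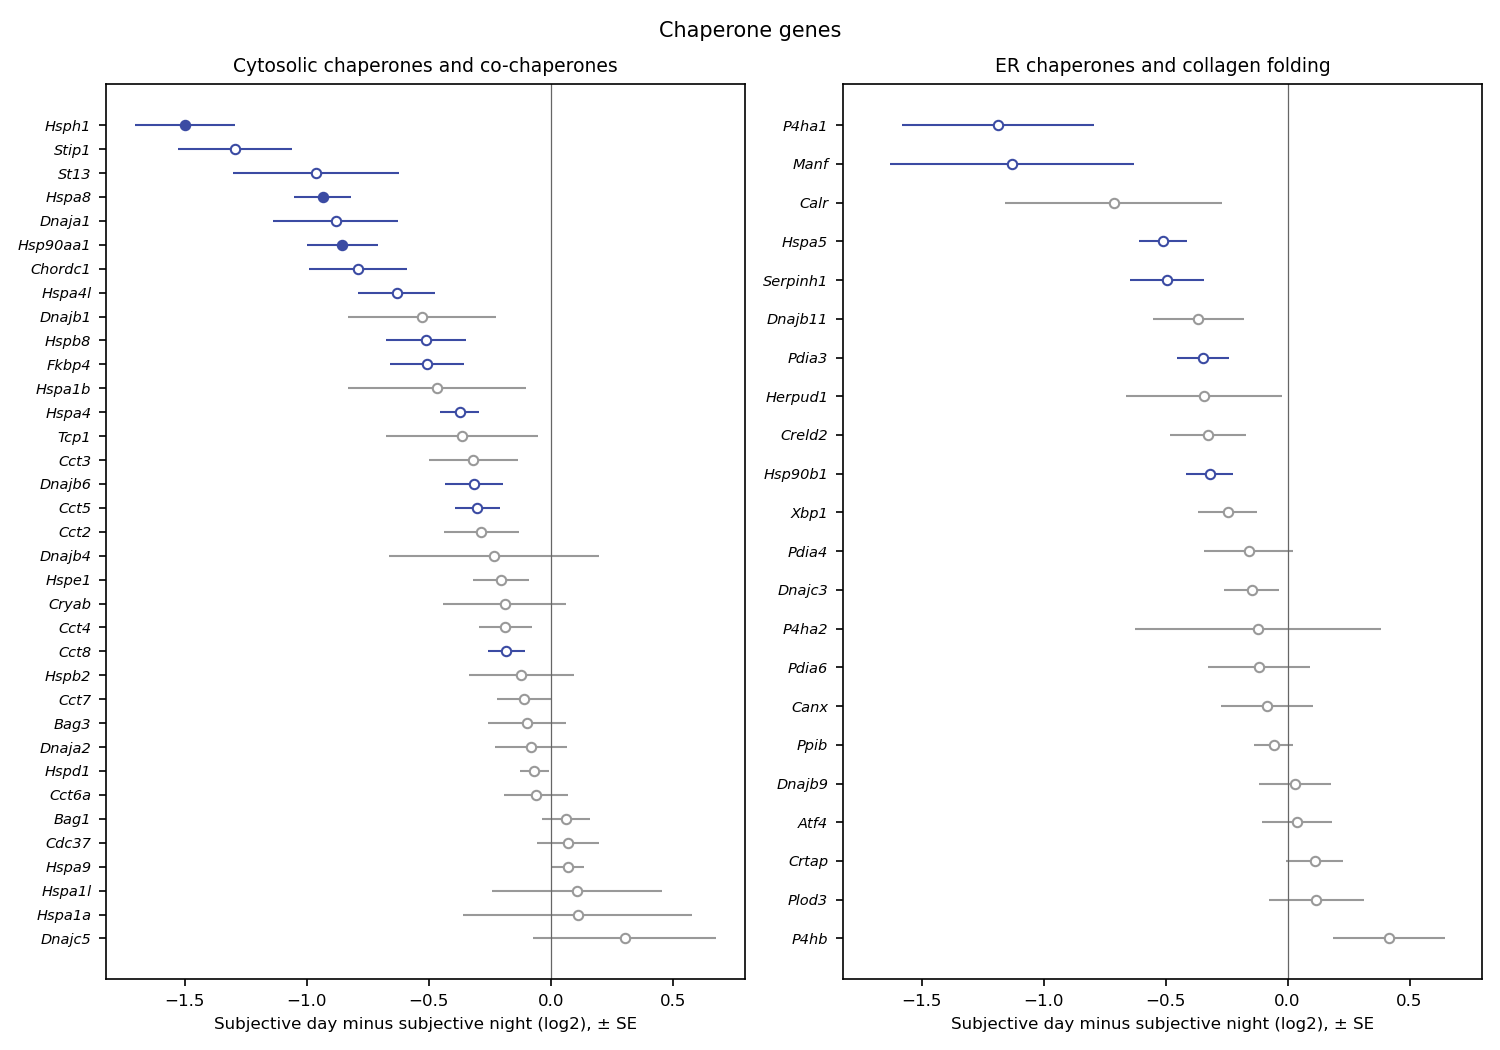
Day minus night difference (log2, horizontal) with its SE for the 35 cytosolic (left) and 22 endoplasmic reticulum (right) chaperone genes measured; filled blue points passed the adjusted threshold, open blue points had an unadjusted p under 0.05, and grey points neither. On the left 29 of 35 genes lie below 0, that is, higher in subjective night.

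The promoters of the cytosolic chaperones were read for the core of the heat shock element, the site of heat shock factors, because these genes lay on one side together. The letters searched were TTCNNGAA or GAANNTTC, on either strand, in the 300 bases from 250 before to 50 after each RefSeq start (GRCm38.p6). Of the 27 members with a promoter in the RefSeq table, 16 held a match (59.3%). Of 4522 tested genes with a promoter 14% did, and of endoplasmic reticulum genes 1 of 21. The list was made of heat shock genes, so this share describes the list and is no evidence about day and night. Members that differed little, such as Hspd1 and Hspa1a, held matches too. Of all genes whose groups did not overlap, 3 of 19 with night higher (15.8%) and 2 of 33 with day higher (6.06%) held one. Counted by single promoters, 50% of those of the list and 11.6% of those of tested genes held one. Of all 32851 promoters of the table, 15.1% did. A match is a description of letters and does not show that a factor binds. The 5 stretches given here, 100 bases each from within these windows and written 5' to 3', come from members with a difference below 0, with the heat shock letters in capitals. In Hsph1 the E-box CACGTG is in capitals as well, and further cores lie past the end of the stretch. In Dnajb6 the letters match at overlapping places. They lie at chr5:149636316-149636415 on the minus strand for Hsph1, chr15:31601847-31601946 (minus) for Cct5, chr5:29735798-29735897 (plus) for Dnajb6, chr4:40722308-40722407 (plus) for Dnaja1 and chr6:128438737-128438836 (minus) for Fkbp4.
Hsph1: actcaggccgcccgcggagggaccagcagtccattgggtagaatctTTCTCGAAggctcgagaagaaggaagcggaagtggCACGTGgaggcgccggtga
Cct5: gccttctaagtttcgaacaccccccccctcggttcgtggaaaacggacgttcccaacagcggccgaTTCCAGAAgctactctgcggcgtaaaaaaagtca
Dnajb6: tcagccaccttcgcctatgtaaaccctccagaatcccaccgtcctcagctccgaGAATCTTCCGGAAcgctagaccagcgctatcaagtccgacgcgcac
Dnaja1: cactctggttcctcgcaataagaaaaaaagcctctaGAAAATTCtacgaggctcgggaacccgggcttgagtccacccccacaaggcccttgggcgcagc
Fkbp4: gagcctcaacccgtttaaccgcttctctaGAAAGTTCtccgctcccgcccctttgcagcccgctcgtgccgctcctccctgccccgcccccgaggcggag

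Of the 14 clock genes measured, 6 had their highest mean in subjective day and 8 in subjective night. Of all 7453 probe sets tested, 1228, 1222 and 975 were highest at circadian times 2, 6 and 10. At 14, 18 and 22 the numbers were 1086, 1304 and 1638. Cry1 was the one clock gene called. Apart from Cry1, the one whose groups did not overlap was Nr1d1 (REV-ERB alpha), a repressor of Arntl, which measured 326 to 588 with a median of 447 in the 6 day pools and 136 to 267 with a median of 229 in the 6 night pools. Day was 2.03-fold higher (1.02 ± 0.19), but the adjusted p was 0.0626 (limma). Nr1d2 (REV-ERB beta), its relative, measured 89.0 to 489 with a median of 315 in the 6 day pools and 36.7 to 235 with a median of 66.6 in the 6 night pools (1.49 ± 0.54, adjusted p = 0.427, limma). Its day pools at circadian time 10 averaged 442 ± 66.3 and its night pools at 14 still 222 ± 19.1, above the 101 ± 16.9 of the day pools at 2 (SD, n = 2 pools each), and the groups overlapped.

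Dbp, a D-box activator, showed the largest difference of the clock genes, 2.08 ± 0.64 (adjusted p = 0.321, limma), and the least even one. It was at the floor in 2 day pools (circadian time 2) and 5 night pools, reached 443 ± 2.17 at circadian time 10 (SD, n = 2 pools), and measured 70.7 in CT62, the one night pool above the floor. Tef, a second D-box factor, averaged 692 ± 4.28 at 10 and 558 ± 175 at 14, on either side of subjective dusk, and 215 ± 10.5 at 2 and 139 ± 123 at 22 (SD, n = 2 pools each). Its day minus night difference was 0.71 ± 0.54 (adjusted p = 0.745, limma). Per2, a period gene, likewise straddled dusk with 137 ± 15.3 at 10 and 208 ± 27.7 at 14, and gave -0.64 ± 0.49. Per1 gave 0.18 ± 0.48 and Per3 -0.11 ± 0.14.

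Arntl, Clock and Nfil3 had differences on the night side, none of which passed. Arntl measured 45.5 to 181 with a median of 142 in the 6 day pools and 88.3 to 308 with a median of 193 in the 6 night pools (-0.75 ± 0.37, adjusted p = 0.585, limma), with its highest mean at circadian time 22 and its lowest at 10. Clock measured 155 to 278 with a median of 207 in the 6 day pools and 247 to 341 with a median of 271 in the 6 night pools (-0.44 ± 0.15, adjusted p = 0.393, limma), and only CT26 of the day pools reached above the lowest night pool. Nfil3, a repressor at D-boxes, gave -1.22 ± 0.57 by its brightest probe set, which is marked for shared probes, and -1.42 ± 0.34 (adjusted p = 0.156, limma) by an unmarked one. Cry2 (-0.25 ± 0.19), Bhlhe40 (-0.10 ± 0.34), an E-box repressor, and Rora (0.04 ± 0.17), an activator of Arntl, differed by less than 1.5 times their SE. Npas2 was too dim to be tested.

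**Figure D4:**
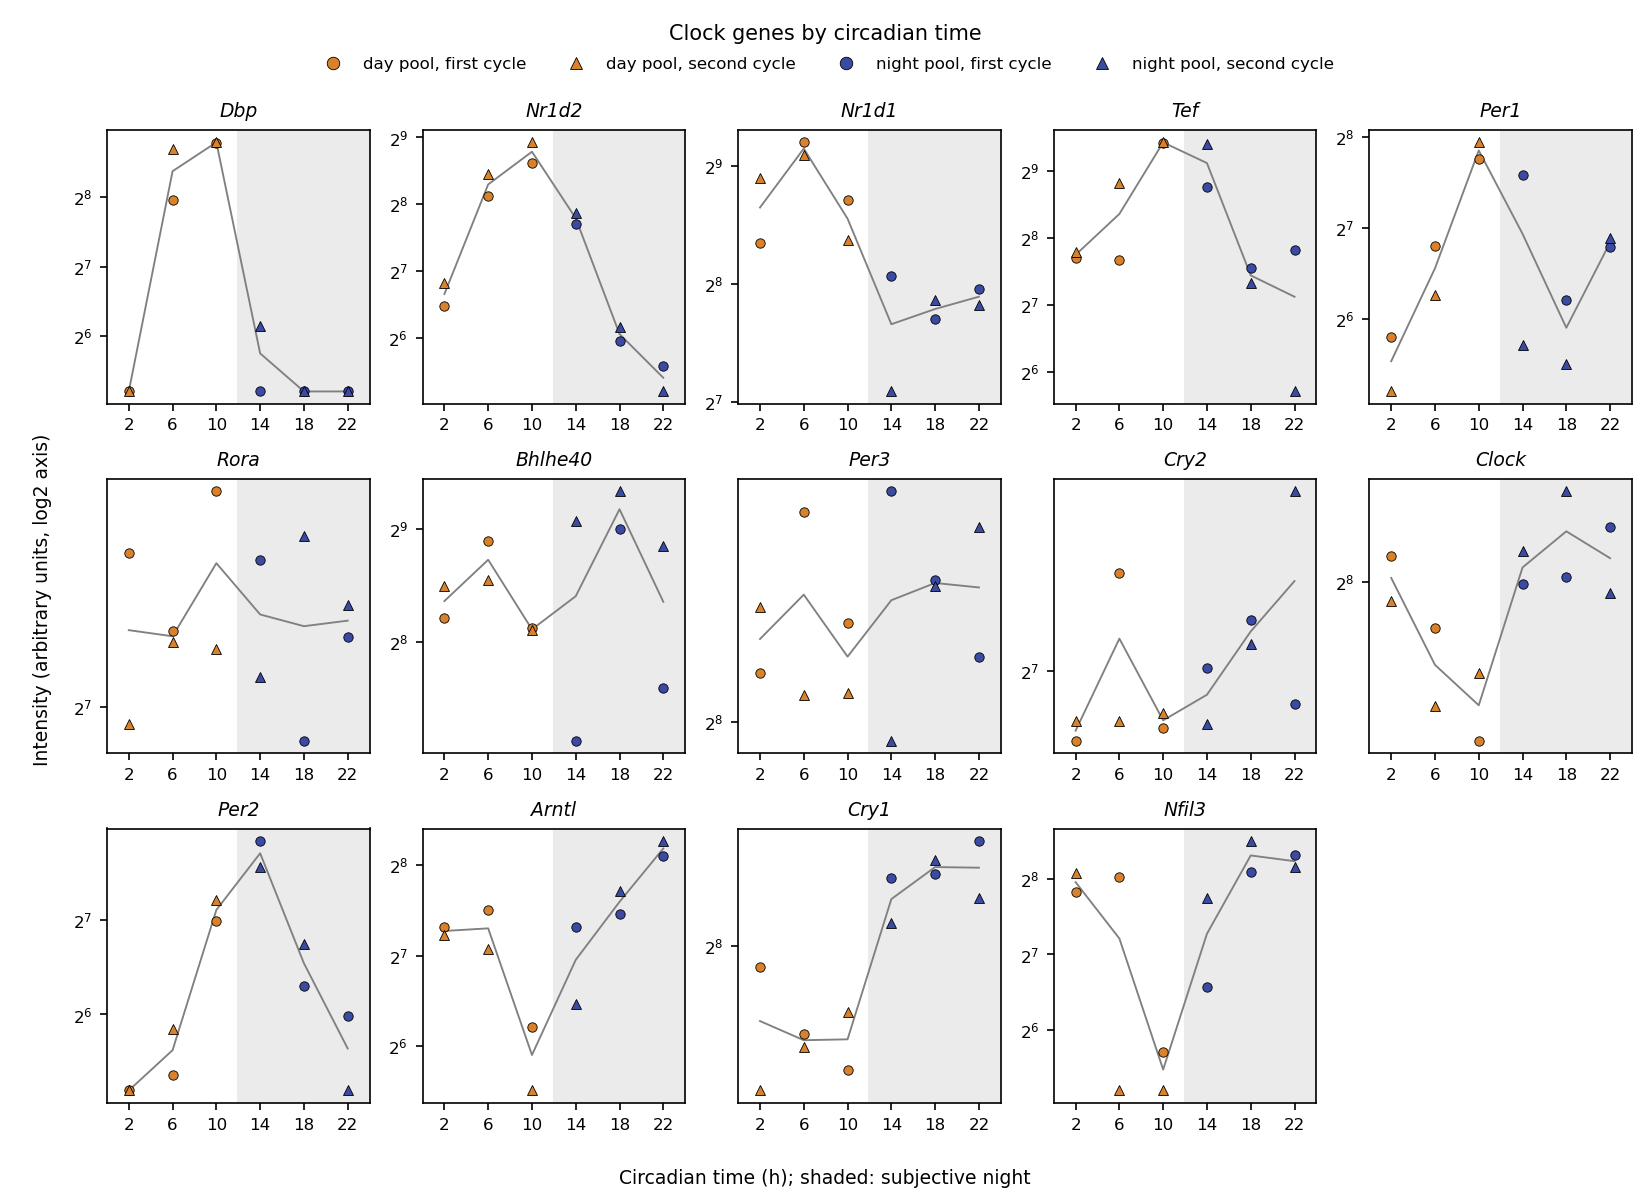
Intensity (arbitrary units, log2 axis, a range of its own in each panel) of the 14 measured clock genes in each pool by circadian time in hours, ordered from the largest day-higher to the largest night-higher difference; symbols as for the genes past the threshold, and shading marks subjective night. Dbp, Nr1d2 and Tef are highest at circadian time 10, Per2 at 14 and Arntl at 22, while Cry1 alone passed the threshold.

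The E-box CACGTG, through which Clock and Arntl act, was searched in the same windows on both strands because a clock repressor was among the called genes. It occurred in 2 of the 2 night-higher called genes with a promoter in the table (Cry1 and Hsph1) and in 2 of 4 day-higher ones (Bri3 and Pim1). By single promoters, 3 of 3 and 2 of 6 held the E-box, and not every window of Bri3 and Pim1 did. Among genes whose groups did not overlap it occurred in 4 of 19 with night higher and 6 of 33 with day higher. These are 21.1% and 18.2%, against 12.2% of tested genes with a promoter. Counted by single promoters, the shares were 22.7% and 13.6%, against 10.1% for tested genes and 7.15% of all promoters. The D-box letters (TTATGTAA or TTACGTAA) and the cyclic AMP element (TGACGTCA) occurred in 0 of these 33 and 0 of these 19 genes, where 0.973% and 3.43% of tested genes with a promoter held them. AGGTCA, a nuclear receptor motif, occurred in 2 of 33 and 2 of 19 (15.9% of all). The E-box is in capitals in 100 bases of a promoter window of Cry1 (chr10:85185055-85185154, minus strand), Bri3 (chr5:144255125-144255224, plus) and Pim1 (chr17:29492985-29493084, plus), with the same build.
Cry1: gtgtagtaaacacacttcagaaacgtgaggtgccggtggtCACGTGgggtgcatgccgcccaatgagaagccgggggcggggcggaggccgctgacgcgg
Bri3: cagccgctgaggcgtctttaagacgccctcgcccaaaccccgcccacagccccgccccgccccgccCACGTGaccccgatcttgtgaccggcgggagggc
Pim1: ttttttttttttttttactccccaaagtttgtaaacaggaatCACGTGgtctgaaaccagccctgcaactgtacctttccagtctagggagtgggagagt

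Genes of fatty acid oxidation and PPAR action lay mostly on the day side. Of 25 measured, 1 (Ppara) was called, against 0.0884% of all genes, and 22 lay above 0, against 45.7%. At an unadjusted p under 0.05, 6 were higher by day and 0 by night (5.08% and 4.07% of all genes), and the median was 0.12. The day count ran from 4 to 7 with 1 pool left out and from 1 to 7 over the other settings. The median of the list ran from 0.08 to 0.15 and from 0.05 to 0.14 in these. Ehhadh, a peroxisomal oxidation enzyme and PPAR target, measured 175 to 418 with a median of 209 in the 6 day pools and 36.7 to 343 with a median of 68.8 in the 6 night pools (1.36 ± 0.44, adjusted p = 0.355, limma), with CT46 at the floor and CT22 as high as 343. Cpt1a, which admits long-chain fatty acids to mitochondria, measured 243 to 319.9 with a median of 283 in the 6 day pools and 126 to 299 with a median of 174 in the 6 night pools (0.55 ± 0.19, adjusted p = 0.42, limma). The coactivator Ppargc1a gave 0.50 ± 0.20, the short-chain dehydrogenase Acads 0.28 ± 0.10 and the mitochondrial carrier Ucp3 0.56 ± 0.25.

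Of 20 measured adipocyte and lipid storage genes, 6 were higher by day and 1 by night at an unadjusted p under 0.05. Of all genes, 5.08% and 4.07% were. Cebpa was the one called, where 0.0884% of all genes were called day-higher. Above 0 lay 13, against 45.7% of all genes, and the median was 0.12. Lipe, hormone-sensitive lipase, measured 2092 to 2712 with a median of 2359 in the 6 day pools and 1245 to 1938 with a median of 1720.5 in the 6 night pools, without overlap (0.52 ± 0.10, adjusted p = 0.0626, limma). Plin4, a coat protein of lipid droplets, and Dgat1, which completes triglycerides, each gave 0.37. Lep, the hormone leptin of white fat, went the other way and measured 107 to 325 with a median of 310.0 in the 6 day pools and 257 to 647 with a median of 515 in the 6 night pools (-0.79 ± 0.31, adjusted p = 0.468, limma). Whole aorta carries perivascular fat: the 5 brown fat markers summed to 25694 to 33546 in day pools and 23879 to 28823 in night pools, and the 4 white fat markers to 15759.6 to 18878 and 15934 to 18538, with overlap in both. Of the brown fat markers 4 of 5 lay above 0, with a median of 0.11. Of the white fat markers, Lep among them, 1 of 4 lay above 0, with a median of -0.17. The part of fat content in the differences of the lipid genes was not tested.

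Of 22 measured genes that make sterols and fatty acids, 5 were higher at night and 1 by day at an unadjusted p under 0.05 (4.07% and 5.08% of all genes), 0 were called, and 8 lay above 0 (45.7% of all genes), with a median of -0.11. The night count fell to 2 without CT18, CT34 or CT42, to 3 without CT46, CT54 or CT58, and to 0 in the first cycle alone. Cyp51, a demethylase of sterol synthesis, measured 68.8 to 92.0 with a median of 87.8 in the 6 day pools and 100.2 to 159 with a median of 138 in the 6 night pools, without overlap (-0.64 ± 0.16, adjusted p = 0.202, limma). Sqle, squalene epoxidase, gave -0.48 ± 0.15, Scd2, a desaturase, -0.84 ± 0.34, and Elovl5, an elongase, -0.36 ± 0.15. Fasn, fatty acid synthase, was the one on the day side and measured 9515 to 13997 with a median of 11735 in the 6 day pools and 8897 to 10234 with a median of 9749 in the 6 night pools (0.27 ± 0.08, adjusted p = 0.313, limma). The median of this list ran from -0.17 to 0.01 with 1 pool left out, above 0 without CT58. Of 20 genes of glycolysis and glucose use 1 had an unadjusted p under 0.05, Gys1, the glycogen synthase of muscle, which measured 803 to 1107 with a median of 981 in the 6 day pools and 674 to 795 with a median of 741 in the 6 night pools, without overlap (0.37 ± 0.09, adjusted p = 0.156, limma). The list's median was 0.01, and without CT30 5 were higher by day.

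None of the vessel wall genes listed was called. Of 40 matrix genes, 6 were higher by day and 1 by night at an unadjusted p under 0.05 (5.08% and 4.07% of all genes). The median was 0.04. Loxl1, which cross-links elastin, measured 301 to 435 with a median of 372 in the 6 day pools and 229 to 352 with a median of 256 in the 6 night pools (0.48 ± 0.13, adjusted p = 0.268, limma), and Eln, elastin itself, gave 0.37 ± 0.16. Col15a1 and Col18a1, collagens found at basement membranes, gave 0.55 ± 0.16 and 0.50 ± 0.15, and Timp3, an inhibitor of metalloproteinases, -0.32 ± 0.14. Of 15 smooth muscle contractile genes 1, the light chain Myl9, reached an unadjusted p under 0.05 at 0.19 ± 0.08, with a list median of 0.02. Of 16 endothelial genes 4 were higher by day and 1 by night (5.08% and 4.07% of all genes), with a median of 0.04. The day count was 2 without CT26 or CT34, 1 without CT42 and 0 in the first cycle alone, and without CT26 the median was -0.0064. Eng, a TGF-beta co-receptor, measured 368 to 609.8 with a median of 445 in the 6 day pools and 264 to 466 with a median of 336 in the 6 night pools (0.40 ± 0.15), and the groups overlapped.

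Genes that set vascular tone split between the phases. At an unadjusted p under 0.05, 3 of 17 were higher by day and 4 at night (5.08% and 4.07% of all genes). With 0 called, the median was -0.03. On the day side, Kcnk3, an acid-sensitive potassium channel, measured 205 to 391 with a median of 323 in the 6 day pools and 139 to 259.8 with a median of 200.5 in the 6 night pools (0.62 ± 0.18, adjusted p = 0.313, limma), and Slc4a4, a bicarbonate transporter, gave 0.81 ± 0.26. On the night side were Ace, the angiotensin-converting enzyme (-0.68 ± 0.22), Edn1, the vasoconstrictor endothelin 1 (-0.60 ± 0.23), Cacna1c, the L-type calcium channel (-0.53 ± 0.19), and Nppb, a natriuretic peptide of the heart (-0.81 ± 0.31). Ace measured 127 to 208 with a median of 170.3 in the 6 day pools and 182 to 469 with a median of 241 in the 6 night pools, with overlap. The 9 atrial markers, Nppb among them, had a median of -0.32, and 0 of them lay above 0. The part of atrial tissue in the values of Nppb was not tested. Of 10 clotting genes 1, F3 (tissue factor), had an unadjusted p under 0.05, at 0.33 ± 0.12 (adjusted p = 0.427, limma), with a list median of 0.03.

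Immediate early genes, which answer stimuli within minutes, had a median of 0.20 over 24 members. This median ran from 0.15 to 0.21 with 1 pool left out, but from 0.009 to 0.25 over the other settings. At an unadjusted p under 0.05, 5 were higher by day and 1 by night (5.08% and 4.07% of all genes). Over the other settings these counts ran from 3 to 6 and from 1 to 3. Zfp36l2 was the one called, where 0.0884% of all genes were called day-higher. Nr4a1, an orphan nuclear receptor of this class, had the largest day-higher difference of all tested genes and measured 328 to 1051 with a median of 578 in the 6 day pools and 36.7 to 343 with a median of 86.5 in the 6 night pools. With 3 night pools at the floor its 2.65 ± 0.59 (adjusted p = 0.124, limma) did not pass, and CT22 at 343 exceeded CT50 at 328. Ccn2, a matricellular growth factor, went to the night and measured 385 to 1105 with a median of 738 in the 6 day pools and 949 to 1485 with a median of 1403 in the 6 night pools (-0.87 ± 0.22, adjusted p = 0.195, limma). Of 20 glucocorticoid-responsive genes 2 were higher by day and 3 at night (5.08% and 4.07% of all genes), with a median of 0.00. Without CT42 or CT50, 1 was higher at night. Zbtb16 (-1.39 ± 0.55), Fkbp5 (-1.37 ± 0.61), the co-chaperone that restrains the receptor, and Cdkn1a (-1.08 ± 0.41), a cyclin-dependent kinase inhibitor, were the night-side ones, all highest at circadian time 14 and with overlapping groups.

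No member of the remaining lists was called. At an unadjusted p under 0.05, 5.08% of all genes were higher by day and 4.07% at night. Cell cycle genes (23 measured) had a median of -0.06 and 1 day-side and 2 night-side members at an unadjusted p under 0.05, Cdkn1c being the day-side one at 0.41 ± 0.13. Genes of haem, antioxidant and detoxification pathways (30) had a median of 0.02 with 2 night-side members, Alas1 and the thioredoxin reductase Txnrd1 (-0.45 ± 0.13). Inflammation and adhesion genes (7) had 1, the chemokine Ccl8 (higher at night, 77.4 against 36.7 by median), which lay at the floor in 4 day and 2 night pools. Respiratory chain and ATP synthase genes (72) had a median of 0.01 and 1 night-side member, the assembly factor Ndufaf4 (-0.49 ± 0.13), without overlap. Without CT30, 12 of these 72 were higher by day at an unadjusted p under 0.05, as were 4 ribosomal and 5 proteasome genes, where 0 of each were with all pools. Without CT38, 3 respiratory chain genes were higher at night. Cytosolic ribosomal proteins (26) had a median of 0.01 and 2 night-side members, among them Rpl7 (-0.18 ± 0.07), and the 41 proteasome subunits had a median of 0.05 and 0, the nearest being Psmc6 at -0.22 ± 0.10.

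**Figure D5:**
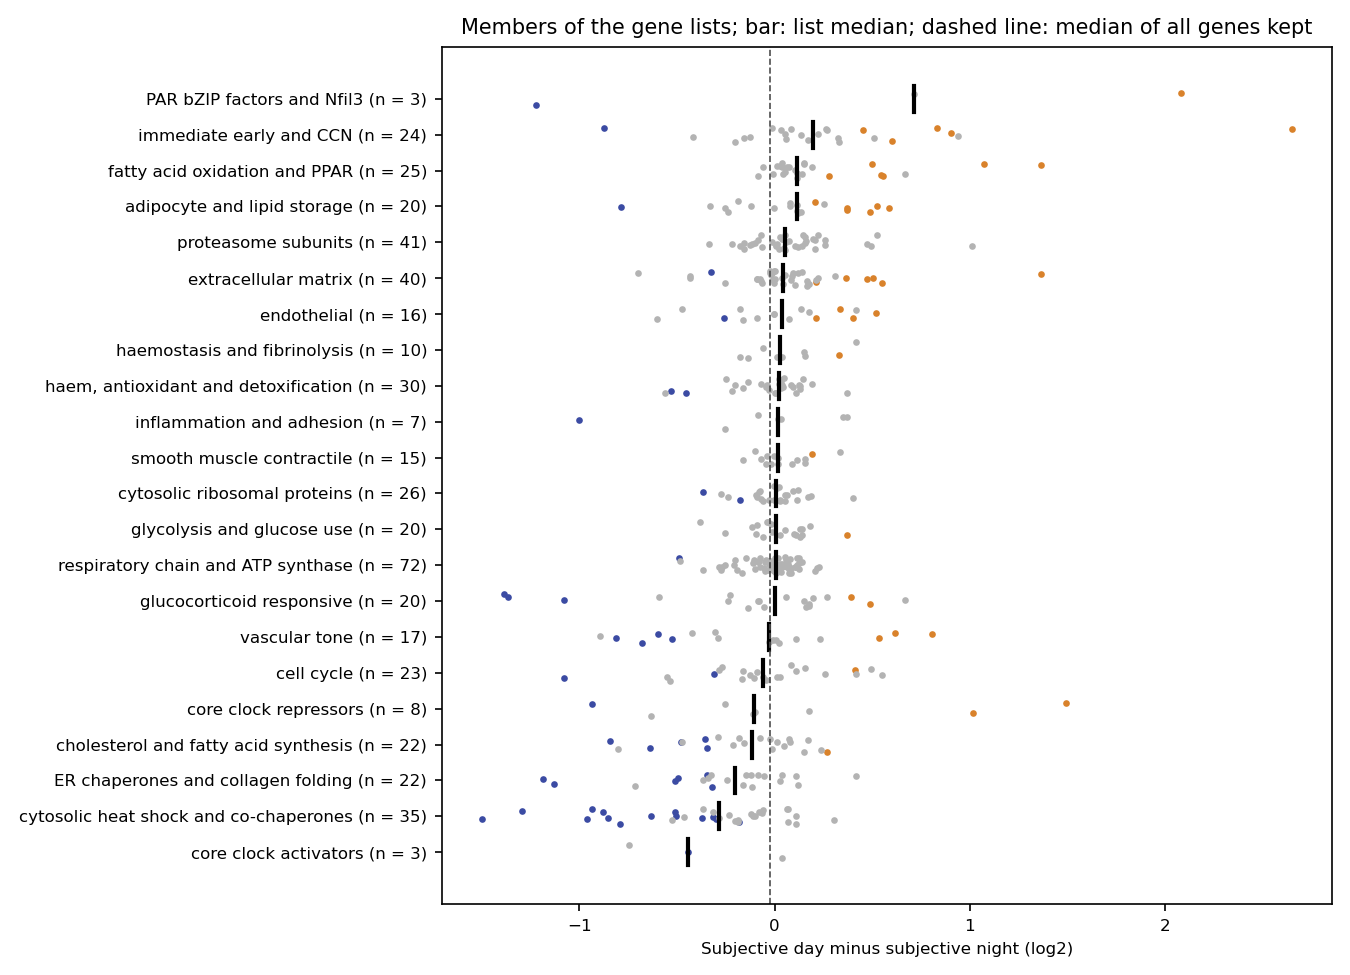
Day minus night difference (log2, horizontal) of every measured member of the 22 gene lists with at least 3 genes kept, 1 list to a row, ordered by median; coloured points have an unadjusted p under 0.05 (orange day higher, blue night higher), the black bar is the list median and the dashed line the median of all genes, -0.02. Cytosolic chaperones have a median of -0.28 and spread to the night side, and the immediate early list, with a median of 0.20, to the day side.

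Across all probe sets the 6 day and 6 night pools did not overlap for 69, of which 43 had day higher (0.577%) and 26 night higher (0.349%). Of the 43, 18 had their highest mean at circadian time 2, 14 at 6 and 11 at 10. Of the 26, 9 were highest at 14, 12 at 18 and 5 at 22. Over all probe sets tested, 1228, 1222 and 975 were highest at 2, 6 and 10, and 1086, 1304 and 1638 at 14, 18 and 22. Most differences of the 69 were small, with a median size of 0.44 for day and 0.48 for night. Those of the largest size, after the genes above, included Ptdss2, a phosphatidylserine synthase (1.05 ± 0.34, adjusted p = 0.348, limma), and Dab2ip, a Ras GTPase-activating protein (0.99 ± 0.23), by day, and Pbx3, a homeobox factor (-0.88 ± 0.21), by night. Ptdss2 was at the floor in 1 night pool and Pbx3 in 1 day pool.

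Whether the contrast was alike in both cycles was asked with an interaction of phase and cycle. With limma 0 probe sets passed, the lowest adjusted p was 0.997, and 312 (4.19%) had an unadjusted p under 0.05. All 10 probe sets past the threshold kept their sign in each cycle of 3 day and 3 night pools. Their groups did not overlap, so this sign was fixed in advance and is no replication. Ppara gave 1.12 in the first and 1.03 in the second, Hspa8 -0.89 and -0.98, and Cry1 -0.94 and -0.92. Hsph1 (-1.31 and -1.69) and Hsp90aa1 (-0.64 and -1.07) differed more between cycles, but not past the test. The 3 genes with the smallest interaction p were Psmb9, an immunoproteasome subunit (-0.55 and 1.61), Acin1, an RNA-processing protein (-0.80 and 1.38), and Kap, the kidney androgen-regulated protein (1.20 and -1.29). Each of these had pools at the floor. The pools of a phase were taken at 3 circadian times, so the spread within a group holds both the variation between pools and the course of a gene through that phase, and p-values measure a difference against that spread.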

How the data were processed

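RNA of pooled mouse aortae was measured on 13 single-colour arrays for 12 pools. The deposited intensities are linear values, 21.3% to 24.2% of them at or below 0 on each array, and every array has a trimmed mean (2% left out at each end) of 200, as found from the values; the labels do not name the software or background step the authors used. Values under the 20th percentile of positive intensities (36.7) were set to it and log2 was taken. Of 12422 probe sets that are not controls, the 7453 with a mean at or above the 40th percentile (an intensity of 48.5) were tested with limma 3.58.1 in R 4.3.3 (lmFit, eBayes with an intensity trend), with Benjamini-Hochberg adjustment. Of the 12422, 10833 had 1 gene in the platform's annotation, 396 had several and 1193 were not listed, and 10817 were found in the RefSeq table, with 0 symbols changed; of several probe sets for a gene the brightest stood for it. The interaction test had a term for cycle. The CT18 arrays count as 1 pool; the labels do not say whether they share an extract. The code was tested on simulated data.

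Genes were named as follows: every probe set past the threshold, the 6 smallest p where under 6 passed in a direction, all measured clock genes, the member of each other list with the smallest p, the 3 smallest interaction p, and up to 6 without overlap in each direction. The comparison, members and lists were chosen with earlier results of these data known. Alternatives covered the floor, filter, scaling, trend, means of circadian times, tissue markers, each cycle and each pool left out. The number of pools limits the precision. Promoter letters come from RefSeq (GRCm38.p6); figures used matplotlib 3.10.9.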

Additional observations from a re-analysis of the deposited data

Results flagged for a closer look

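In 6 of 94 groups of 6 pools, over 47 named genes, 1 pool lay far from the others, by Dixon's test at the 95% level; chance marks about 1 in 20 groups. In the night pool CT62, taken at circadian time 14, Nr1d1 was lowest at 135.9 (nearest pool 208.3) and Cirbp was lowest at 153.2 (nearest 278.9). Dbp was highest in CT62 at 70.74, where the other night pools were at the floor of 36.7. With those pools tied, any value above the floor would have been marked, so the mark on Dbp was fixed by the floor. In the day pool CT30, at circadian time 6, Dab2ip was highest at 212.1 (nearest 118.8) and Cry2 was highest at 172.4 (nearest 112.6). Dab2ip in the night pool CT46, at circadian time 22, was lowest at 37.43 (nearest 63.07).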

How the results depend on the processing

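The 10 probe sets past the threshold kept their sign under each alternative that tested them, but the counts moved (limma). Each was tested under 30, or 29 for Pim1, which a filter at the 60th percentile leaves out. In settings that only left out pools, the lack of overlap fixed the sign in advance. Without the filter on dim probe sets 1 was higher by day and 0 by night, and 1 passed for the cycle interaction. Day-higher counts were 11 after quantile normalization, 3 without the intensity trend and 14 on the 6 means of circadian times. Of these, 6, 3 and 5 were among the 10. With tissue markers in the model, and also when CT18, CT34 and CT58 were dropped for their skeletal muscle markers, 0 were higher by day and 0 by night. The first cycle alone gave 0 and 0, the second 2 and 0, with 0 of those 2 among the 10. Non-overlapping probe sets numbered 163 without those 3 pools, 652 in the first cycle and 1104 in the second, where fewer pools are compared. Leaving out 1 pool at a time gave 1 to 10 day-higher, 2 to 8 night-higher, 0 to 0 interaction and 83 to 175 non-overlapping probe sets. Some genes that did not pass changed sign. Per2 became 0.38 with tissue markers. Without CT18, CT34 and CT58, Per1 became -0.48, Bhlhe40 0.14 and Rora -0.12. In the first cycle Psmb9 was -0.55, Acin1 -0.80, Per1 -0.077, Bhlhe40 0.50 and Kap 1.20, and in the second Rora was -0.22. Kap was 0.26 with a lower floor and 0.047 with a pseudocount of 50. With 1 pool left out, Per1 ran from -0.086 to 0.46, Bhlhe40 from -0.38 to 0.066, Rora from -0.047 to 0.11 and Kap from -0.23 to 0.21. The cause of these moves was not tested. No paired analysis was possible because the pools are numbered by their hour and no number is shared between day and night. Values at the floor are bounds, so the differences of Dbp, Nr4a1 and Pim1 depend on it.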
